A study of Mus musculus with 18 samples.

Results

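The genes Opn1sw and Opn1mw were followed through 18 RNA-seq libraries of sorted mouse cones. They were chosen by symbol and are 2 of the 54532 genes in the count tables. Each library was made by the Smart-Seq2 method from cones of 1 retina, sorted on the nuclear H2BGFP label that a virus had delivered. BALB/c mice, an albino strain with wild-type photoreceptors, were sampled at postnatal day 21, with 6 control and 6 Txnip libraries. C57BL/6J mice, a pigmented wild-type strain, were sampled at postnatal day 35, with 3 control and 3 Txnip libraries. All eyes were injected at birth with adeno-associated virus (AAV). Control eyes received AAV8-SynP136-H2BGFP alone, and Txnip eyes received it together with AAV8-RedO-Txnip, in which a human red opsin promoter drives the mouse gene for thioredoxin-interacting protein. Strain and age changed together, and the headers of the count tables place the strains in different sequencing projects, so a difference between strains cannot be told apart from one of age or sequencing. The sources used here do not give which retinas shared a mouse or which part of the retina the cones came from, so p-values measure the spread between these retinas.

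Cone opsins are the light-sensing receptors of cones. Opn1sw encodes S opsin, which absorbs short wavelengths, and Opn1mw encodes M opsin, which absorbs middle wavelengths. Many mouse cones make both, with M opsin prevailing in the dorsal retina and S opsin in the ventral retina. Light activates an opsin, which then acts through the cone transducin and a phosphodiesterase to close a cyclic nucleotide-gated channel. Thyroid hormone receptor beta, its partner retinoid X receptor gamma, and the factors CRX and RORB are known regulators of the choice between the opsins.

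Opn1sw (ENSMUSG00000058831) lies on the minus strand at chr6:29376671-29388468 of GRCm38, with 2557 exonic bases, and Opn1mw (ENSMUSG00000031394) on the plus strand at chrX:74127464-74150760, with 1562 exonic bases. The promoter windows are shown as background on the 2 genes. They are read from a single reference genome, so they do not compare the strains. Each runs from 250 bases before to 50 after the RefSeq start in GRCm38.p6, at chr6:29380464-29380763 and chrX:74127216-74127515. Capitals mark every match, on either strand, to TAATC (the core bound by CRX and OTX2), TATAAA (the TATA box) or AGGTCA (a nuclear receptor element, read TGACCT on the other strand).
Opn1sw: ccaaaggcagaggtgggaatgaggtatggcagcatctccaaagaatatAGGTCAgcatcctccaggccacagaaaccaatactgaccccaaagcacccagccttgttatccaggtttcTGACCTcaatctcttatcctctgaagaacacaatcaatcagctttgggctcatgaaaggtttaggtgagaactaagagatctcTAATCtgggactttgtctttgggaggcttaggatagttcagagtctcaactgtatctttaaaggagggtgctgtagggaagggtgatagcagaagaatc
Opn1mw: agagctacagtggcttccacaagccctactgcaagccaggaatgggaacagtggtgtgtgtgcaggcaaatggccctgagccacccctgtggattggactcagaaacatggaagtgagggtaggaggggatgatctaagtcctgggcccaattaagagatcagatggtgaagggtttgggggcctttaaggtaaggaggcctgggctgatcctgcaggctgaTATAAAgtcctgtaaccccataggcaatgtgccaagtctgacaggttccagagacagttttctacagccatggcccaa
The Opn1sw window held TAATC at position -49 from the start, AGGTCA at -202 and its reverse at -132, and no TATAAA. The Opn1mw window held TATAAA at position -28 and neither of the other motifs. Among 32851 promoter windows of the same length, 22.0% held TAATC, 13.6% held TATAAA and 16.3% held AGGTCA. No 2 of these matches overlapped.

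Totals ran from 647712 to 5172156 counts per library. Txnip had 0 to 3 counts in the 9 control libraries and 663 to 8536 in the 9 Txnip libraries. Cone markers took 1.84% to 3.74% of counts and rod markers 0.271% to 1.6%. The rod share was highest in C57BL/6J control 1, at 1.6%, and C57BL/6J Txnip 2, at 1.11%, against at most 0.479% in the others. Ganglion cell markers took 0.0372% to 0.111% in BALB/c and 0.00232% to 0.0101% in C57BL/6J. All 6 were lower in C57BL/6J controls and 5 in Txnip cones, against 9.52% and 9.38% of all genes. Of the amacrine cell markers, at 0.0112% to 0.0518% of counts, 4 of 6 tested were lower in each comparison, with medians of -1.51 and -1.70. Of the Muller glia markers, at 0.0357% to 0.119%, 2 of 6 tested were higher and 1 lower in each, with medians of 1.32 and 2.02. Of all genes, 8.03% were higher in controls and 8.24% in Txnip cones. Dorsal and ventral markers were near 0, at no more than 0.00209% and 0.00207% of counts. Rod share was carried as a covariate among the alternatives, and the part of the other shares in the results was not tested.

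Opn1sw was the most abundant cone opsin transcript in every library. It held between 1.24% (Wilson 95% interval 1.23% to 1.25%, C57BL/6J Txnip 2) and 4.99% (4.96% to 5.01%, C57BL/6J control 3) of all counts. Opn1mw held between 0.265% and 0.865%. The shallowest library still held 1814 Opn1mw counts, or 0.280% (0.268% to 0.293%). The intervals cover counting error only, and they were narrower than the spread between libraries. By level per kilobase of exon, Opn1sw ranked from 1 to 6 among all genes and Opn1mw from 5 to 16. Against the 18 listed genes of cone phototransduction, Opn1sw came first in all 4 groups. Opn1mw stood at place 4 in both BALB/c groups and at place 2 in both C57BL/6J groups.

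M opsin transcript was 2.33-fold higher in C57BL/6J than in BALB/c control cones, while no difference in S opsin transcript passed the test. The values are CPM, counts brought to a common library total, after TMM scaling, which corrects for library composition. In BALB/c control libraries Opn1mw ran from 2903 to 3344 CPM, with a median of 3198. In the C57BL/6J control libraries it was 5569, 7995 and 8517 CPM. The lowest of these was C57BL/6J control 1, a rod-rich library, and it still lay above every BALB/c library. The mean was 3155 ± 186 CPM (SD, n = 6) in BALB/c and 7360 ± 1573 (SD, n = 3) in C57BL/6J. The log2 difference was 1.22 ± 0.14 (SE), with a 95% interval of 1.90- to 2.86-fold and an edgeR quasi-likelihood adjusted p of 2.15e-06. Of all 14751 genes tested, 17.5% were called in this comparison, 8.03% higher and 9.52% lower in C57BL/6J. In sorted pools a larger share of M opsin cones and more M opsin RNA per cone cannot be told apart.

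Txnip cones gave the same comparison in libraries that share no sample with the controls. Opn1mw ran from 2656 to 3347 CPM, median 3074, in the 6 BALB/c Txnip libraries. The C57BL/6J Txnip libraries had 8799, 5562 and 6645 CPM, all above that range. The share of all genes that separate the strains in this way, here or in controls, is not given. The log2 difference was 1.20 ± 0.14 (edgeR adjusted p = 2.74e-06), where 17.6% of genes were called, 8.24% higher and 9.38% lower. Without the 2 rod-rich libraries it was 1.37 in controls and 1.33 in Txnip cones, and with rod share as a covariate 1.30 and 1.27, all called. Opn1mw is X-linked, and Xist, the transcript that silences one X chromosome in females, was at 658 CPM or more in 10 libraries and at 5.28 CPM or less in 8. With Xist as a covariate the differences were 1.20 in controls and 1.16 in Txnip cones, both called. That fit takes the same slope in both strains, and the part of sex in the strain difference was not tested further. In BALB/c, Opn1mw ran from 2968 to 3347 CPM in libraries high in Xist and from 2656 to 3321 in those low in it. The 2 rod-rich libraries are also the 2 C57BL/6J libraries low in Xist, so leaving them out changes both together, and they had the lowest Opn1mw levels of their strain, 5569 and 5562 CPM.

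**Figure D1:**
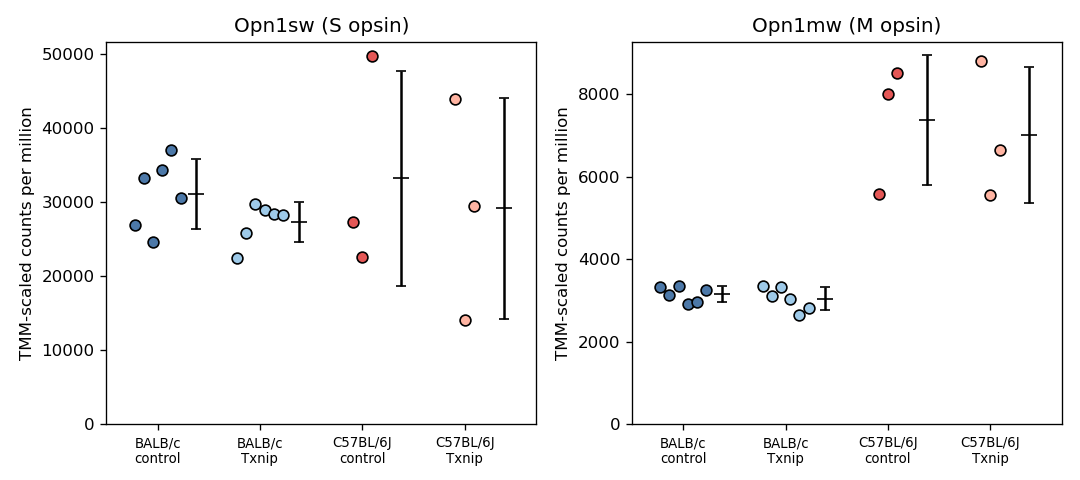
TMM-scaled CPM of Opn1sw (left) and Opn1mw (right) in each of 18 libraries, one point each, with the group mean and SD beside the points. The C57BL/6J libraries all lie above the BALB/c libraries for Opn1mw and straddle them for Opn1sw.

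Opn1sw was spread far more widely in C57BL/6J. In BALB/c controls it ran from 24604 to 37040 CPM, median 31950, and in BALB/c Txnip libraries from 22495 to 29788, median 28350. The C57BL/6J control libraries had 27385, 22588 and 49826 CPM, and the C57BL/6J Txnip libraries 43923, 14066 and 29566. Both the highest and the lowest Opn1sw values of the series were in C57BL/6J, and the strains overlapped. The coefficient of variation was 15.1% and 9.84% in the BALB/c groups against 43.7% and 51.2% in C57BL/6J. The log2 difference between strains was 0.10 ± 0.25 in controls (edgeR adjusted p = 0.838) and 0.10 ± 0.25 in Txnip cones (0.839). Its interval in controls, 0.747- to 1.53-fold, leaves room for a change of either sign. When libraries were scaled to the cone phototransduction genes the sign turned, to -0.46 and -0.49, neither called. Under that scaling the median of all genes lay at -0.50 in controls and -0.42 in Txnip cones, against 0.00 and 0.05 with TMM. Opn1mw stayed higher under it, by 0.70 and 0.68, both called.

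The ratio of S to M opsin transcript, with each count divided by the gene's exonic length, does not depend on library scaling. In BALB/c controls it ran from 4.50 to 7.62, with a median of 6.11. In C57BL/6J controls it was 3.00, 1.73 and 3.57. All C57BL/6J libraries lay below all BALB/c libraries, and the same held for Txnip cones, at 3.05, 1.54 and 2.72 against 4.11 to 6.53. The mean log2 ratio was lower in C57BL/6J by 1.18 in controls and by 1.22 in Txnip cones, or 0.443 and 0.428 of the BALB/c ratio. The two-sided exact permutation p was 0.0238 in both, the smallest that 6 against 3 libraries allow, and 0.0476 after adjustment over 4 comparisons. Opn1mw made up 11.6% to 19.6% of the 2 opsins per length in BALB/c and 21.9% to 39.3% in C57BL/6J. Dividing by the first annotated transcript of each gene in place of all annotated exons gave group means of 5.07, 4.61, 2.31 and 2.03, with the same log2 differences. Without the 2 rod-rich libraries the log2 ratio was lower in C57BL/6J by 1.27 in controls and by 0.93 in Txnip cones, and 6 against 2 libraries cannot pass the test.

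**Figure D2:**
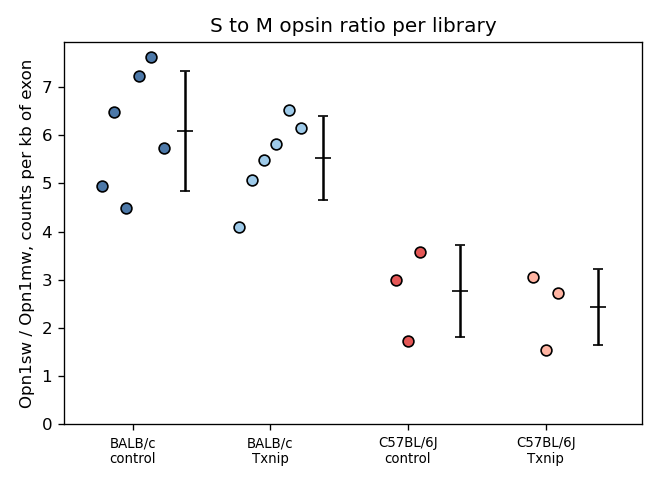
Ratio of Opn1sw to Opn1mw counts per kilobase of exon in each of 18 libraries, with the group mean and SD. The 12 BALB/c libraries lie between 4.11 and 7.62 and the 6 C57BL/6J libraries between 1.54 and 3.57.

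Txnip changed neither opsin past the test. In BALB/c cones the log2 difference of Opn1sw was -0.19 ± 0.09 (edgeR adjusted p = 0.437, unadjusted 0.0504), a 95% interval of 0.767- to 1.00-fold. For Opn1mw it was -0.05 ± 0.07 (adjusted p = 0.830), from 0.868- to 1.07-fold. The Txnip and control libraries overlapped for both genes. In C57BL/6J cones the differences were -0.20 ± 0.46 for Opn1sw and -0.08 ± 0.29 for Opn1mw (adjusted p = 1), with intervals of 0.425- to 1.79-fold and 0.598- to 1.5-fold. The C57BL/6J intervals are wide and leave room for a change of either sign. Over all genes 0.0166% were called in BALB/c and 0.0154% in C57BL/6J, 2 genes in each, Txnip itself and Gm15441, whose exons overlap it.

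The within-strain and between-strain comparisons use the same libraries. The Txnip effect did not differ between strains past the test, with a difference of 0.00 ± 0.35 for Opn1sw and -0.02 ± 0.21 for Opn1mw. No gene was called, 0 of 14751 by edgeR and 0 by DESeq2, and 706, or 4.79%, had an unadjusted p under 0.05 in edgeR. The S to M ratio fell by 0.13 on the log2 scale with Txnip in BALB/c (exact permutation p = 0.431, adjusted 0.574) and by 0.18 in C57BL/6J (p = 0.6, where 0.100 is the smallest possible). Neither passed the test.

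**Figure D3:**
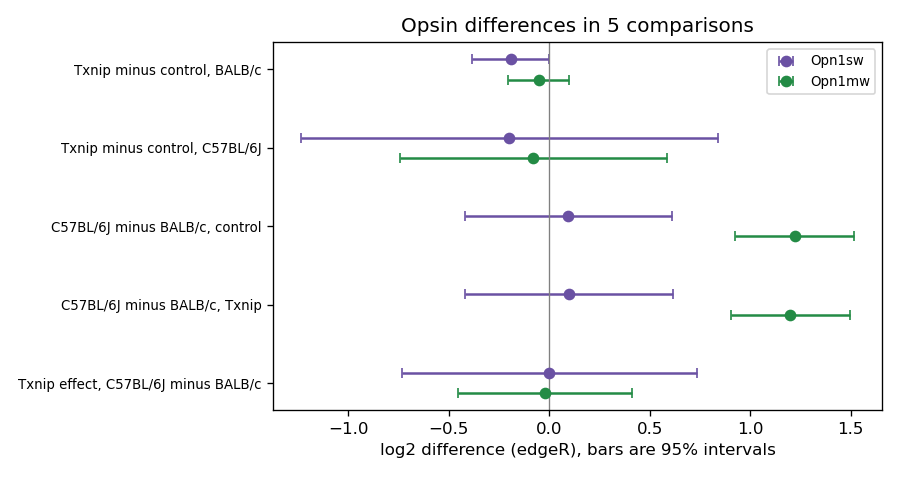
Log2 difference of Opn1sw and Opn1mw in 5 comparisons from edgeR, with 95% intervals. Only the intervals of Opn1mw between strains lie clear of 0, at 1.22 in controls and 1.20 in Txnip cones.

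The relation between the opsins across BALB/c libraries was negative but did not pass adjustment. Over 12 libraries, as deviations from group means of log2 CPM, Pearson's r was -0.602 (permutation p = 0.0296) and Spearman's rho -0.559 (permutation p = 0.0541). After adjustment over 3 relations these were 0.0888 and 0.162. Without the 2 libraries farthest from the Opn1sw median, BALB/c Txnip 1 and control 5, r was -0.414. With the summed level of the cone phototransduction list, r was 0.07 for Opn1sw and 0.10 for Opn1mw (permutation p = 0.877 and 0.736), and neither relation passed. For Opn1sw it was -0.218 without BALB/c Txnip 1, -0.0297 without BALB/c control 2 and 0.482 without BALB/c control 4. For Opn1mw it was -0.313 without BALB/c control 4 and 0.39 without BALB/c Txnip 1.

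The share of counts on the ribosomal RNA locus was set beside the ratio in each library, a comparison chosen after the values were seen. Among BALB/c controls, replicates 2, 4 and 5 had 8.70%, 6.07% and 6.00% of counts on 3 ribosomal RNA locus genes, and the other 3 had 15.0% to 15.7%. These 3 libraries also had the highest Opn1sw levels, 33256, 34374 and 37040 CPM, and the highest ratios, 6.48, 7.23 and 7.62. In C57BL/6J the lowest ratios, 1.54 and 1.73, were in the libraries with 26.9% and 27.6% on that locus. The 6 BALB/c Txnip libraries showed no such order. Their highest ratios, 6.53 and 6.15, were at 15.6% and 16.3%, their lowest, 4.11, at 14.3%, and the library with the lowest share, 12%, had a ratio of 5.83. The BALB/c libraries at 12% to 16.3% had ratios of 4.11 or more. The C57BL/6J libraries at 3.27% to 6.44% had ratios of 3.00 to 3.57, and C57BL/6J Txnip 3, at 20.2%, had 2.72. The part of this share in the ratio was not tested.

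**Figure D4:**
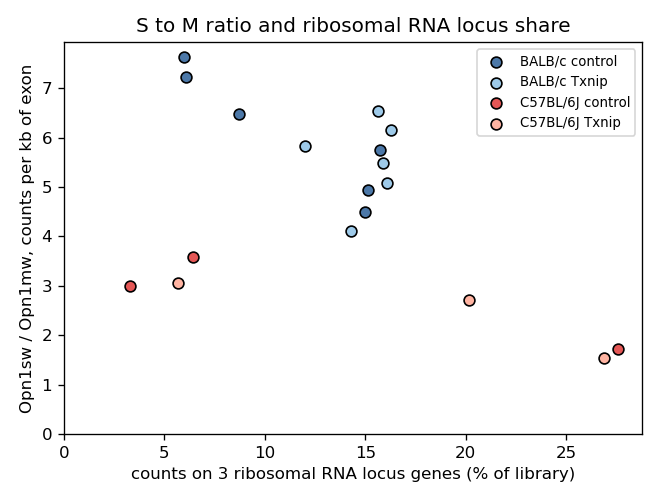
Ratio of Opn1sw to Opn1mw per kilobase of exon against the percent of counts on 3 ribosomal RNA locus genes, one point per library. Points of the 2 strains do not overlap in ratio, and the shares run from 3.27% to 27.6%.

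Genes beside and within Opn1mw also read higher in C57BL/6J. Tex28, on the opposite strand 183 bases beyond the end of Opn1mw, differed by 1.37 ± 0.18 in controls (edgeR adjusted p = 1.29e-05). Gm6758, inside the gene on the opposite strand, differed by 1.16 ± 0.22. Tex28 counts were 2.31% to 4.02% of the Opn1mw count in every library, with overlap between strains. Counting did not use strand, so reads from the opposite strands cannot be told apart, and neither gene shares an exonic base with Opn1mw. On chromosome 6, Calu shares 397 exonic bases with Opn1sw, and a read there was counted for both. Calu held 4.23% to 7.74% of the Opn1sw count, and its strain difference was -0.15 ± 0.22. Ccdc136, on the other side, differed by 0.26 ± 0.21. Neither Calu nor Ccdc136 was called.

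Some other genes of the cone light response were also higher in C57BL/6J. Of the 18 cone phototransduction genes, all tested, 7 were higher and 0 lower in C57BL/6J controls, with a median log2 difference of 0.44, where 8.03% of all genes were higher, 9.52% lower and the median was 0.00. In Txnip cones 10 were higher and 0 lower, with a median of 0.52, against 8.24% higher, 9.38% lower and a median of 0.05 over all genes. Rcvrn, Gnb3, Cnga3 and Cngb3 were among those not called. Pde6c, the catalytic subunit of the cone phosphodiesterase, differed most in controls, by 2.65 ± 0.14. Guca1b, a calcium sensor of guanylate cyclase, differed by 1.13 ± 0.13, and Slc24a2, the cone sodium-calcium exchanger, by 1.04 ± 0.19. Arr3, the cone arrestin that quenches activated opsin, differed by 0.98 ± 0.17, and Grk1, the opsin kinase, by 0.67 ± 0.15. Rods also make Grk1 and Guca1b, and 4 of 9 rod markers were higher in the same comparison. In it 4 of 6 tested amacrine and 6 of 6 ganglion cell markers were lower, and their part in these values was not tested. The list holds neither opsin. Set against its summed CPM, Opn1mw was 10.3% to 14.2% in BALB/c and 17.8% to 21.8% in C57BL/6J, which did not overlap. The Opn1sw level was 92.4% to 149.6% of that sum in BALB/c and 51.5% to 110.5% in C57BL/6J, which did.

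**Figure D5:**
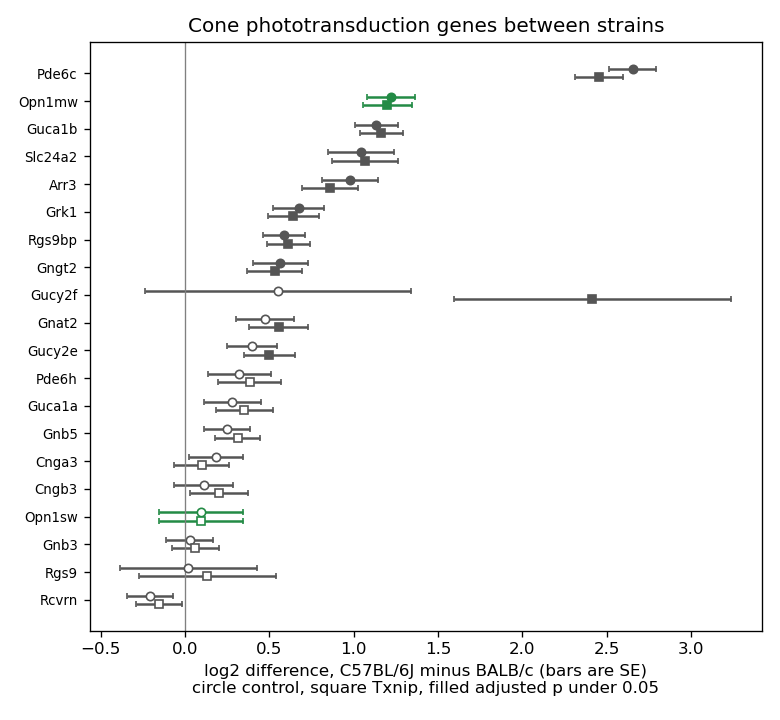
Log2 difference between C57BL/6J and BALB/c for the opsins (green) and 18 cone phototransduction genes, in control (circles) and Txnip (squares) cones, with SE bars and filled symbols where the adjusted p passed. Opn1mw, at 1.22, stands second to Pde6c, at 2.65, among the controls, and Opn1sw lies near 0.

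Of 21 listed opsin regulators, 18 were tested and 4 were higher in C57BL/6J controls, with 0 lower, against 8.03% and 9.52% of all genes. Of the 9 rod markers, 4 were also higher in C57BL/6J controls, with a median log2 difference of 1.6, and 1 in Txnip cones, with a median of 0.79, and their part in the regulators' values was not tested. Samd11, a polycomb partner in photoreceptors, differed by 3.09 ± 0.47 and Esrrb, an orphan nuclear receptor, by 1.67 ± 0.41. Samd11 counts in the 3 C57BL/6J controls ran from 121 to 793, and its level there was 126 ± 138 CPM (SD, n = 3) against 14.7 ± 2.57 (SD, n = 6). Thra, the alpha thyroid hormone receptor, differed by 0.65 ± 0.21 and Crx by 0.45 ± 0.12. In Txnip cones 4 were again higher, with Rxrg, at 0.78 ± 0.17, in place of Thra. Thrb, the receptor most closely tied to M opsin, differed by -0.20 ± 0.22 (adjusted p = 0.587) and Rorb by -0.05 ± 0.29 (adjusted p = 0.933), and neither was called. Of the 12 genes of opsin transport, 2 were higher, Tulp1 at 0.40 ± 0.10 and Rpgrip1 at 0.53 ± 0.15, and 4 were lower, among them Ift88 at -0.70 ± 0.19 and Rab11a at -0.66 ± 0.16, again against 8.03% and 9.52% of all genes. In Txnip cones 2 were higher and 2 lower, against 8.24% and 9.38%, with Rab11a called again and Ift88, at -0.13 ± 0.18, not called. Of the 7 dorsal genes 3 were tested, and in each strain comparison 1 was lower and 0 higher, against 9.52% and 9.38% of all genes lower, with medians of -0.13 in controls and -0.38 in Txnip cones. The gene called was Tbx3, a dorsal transcription factor, with 7 to 9 counts in BALB/c controls and 0 to 1 in C57BL/6J controls. Of the 5 ventral genes 3 were tested and 0 were called. In the Txnip comparisons 0 of the tested members of these lists were called in either strain, although 0 of 7 dorsal genes could be tested in BALB/c and 1 in C57BL/6J, and 2 of 5 ventral genes in each.

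Opn4, the melanopsin of some ganglion cells, was tested and not called in either strain comparison, and Opn3, Opn5 and Rgr were below the filter.

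Over all 18 libraries, as deviations from group means and among 7375 other genes of at least median level, the genes closest to Opn1sw were Glo1 (r = 0.972), Nars (0.957), Atp6v1b2 (0.955), Ndfip1 (0.946) and Psmb1 (0.944). The closest to Opn1mw were Fth1 (0.900), Fkbp4 (0.845), Atp5b (0.842), Bola1 (0.838) and Dll1 (0.837). The median r over the genes compared was 0.183 for Opn1sw and 0.139 for Opn1mw, and all values share library scaling and the wide C57BL/6J spread. The opsins had r = 0.479 with each other over 18 libraries, against -0.602 in BALB/c and 0.721 over the 6 C57BL/6J libraries.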

How the data were processed

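Reads of 18 mouse cone libraries were aligned with STAR and counted with featureCounts 1.6.2, without strand, against Ensembl 94 exons on GRCm38.p6, per the file headers and the submitters' processing notes. The STAR version is not given in the sources used here. The authors deposited raw counts per gene, 54532 genes a library, of which 123 identifiers had no symbol in the reference table. A read over several genes was counted for each. The authors' DESeq2 result tables, which hold fold changes and p-values, were not used.

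Each strain's Txnip effect was fitted within the strain, and strain and interaction contrasts in 1 fit of 4 groups, as quasi-likelihood tests in edgeR 4.0.16 with TMM scaling, the default expression filter and Benjamini-Hochberg adjustment at 0.05, in R 4.3.3. DESeq2 1.42.0 was an alternative. The S to M ratio, each count divided by exonic length, was compared by two-sided exact permutation (scipy 1.17.1). The relations across libraries used 100000 permutations within groups. Scripts were tested on simulated counts. No 2 libraries of a group agreed within sampling noise (smallest chi-square 1.83 per degree of freedom over 36 pairs). The genes, marker and pathway lists, tests and named genes were chosen with earlier results of these data known. Genes were named if they were an opsin, Txnip, an opsin's neighbour, 1 of the 5 genes most like an opsin, or a list member past the threshold or of high level. Some genes that met this rule are not reported here.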

Additional observations from a re-analysis of the deposited data

How the results depend on the processing

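Opn1mw was higher in C57BL/6J, and called, under every alternative tried, between 0.70 and 1.37 in controls and between 0.68 and 1.33 in Txnip cones. Opn1sw between strains turned to -0.46 in controls (adjusted p = 0.0637) and -0.49 in Txnip cones (0.0531) when scaled to cone phototransduction genes. The Opn1sw interaction, 0.00, turned to -0.0122 with DESeq2 and -0.0142 with its size factors in edgeR, to -0.0327 with cone scaling, -0.105 with rod share and -0.0276 with Xist as a covariate. Without the 2 rod-rich libraries, the Txnip effect in C57BL/6J turned to 0.00901 for Opn1sw and to 0.21 for the ratio, and the strain difference in ratio was -1.27 in controls and -0.93 in Txnip cones (adjusted p = 0.143), where 6 against 2 libraries cannot pass. The cause of these changes was not tested, beyond the smaller number of libraries.

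Replicate numbers did not pair the libraries, with correlations of same-numbered deviations from -0.11 to 0.10. With a replicate block, the Txnip effect was -0.18 for Opn1sw and -0.05 for Opn1mw in BALB/c, -0.26 and -0.08 in C57BL/6J, and the Opn1sw interaction -0.0774. The ratio gave -0.13 and -0.18. None was called.

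Leaving out 1 library gave strain differences of 1.11 to 1.37 (controls) and 1.00 to 1.33 (Txnip) for Opn1mw, all called. For Opn1sw they were -0.32 without C57BL/6J control 3 to 0.28 without control 2, and -0.33 without C57BL/6J Txnip 1 to 0.42 without Txnip 2. The Txnip effect in C57BL/6J was -0.59 to 0.20 for Opn1sw and -0.26 to 0.0344 for Opn1mw, and in BALB/c -0.25 to -0.13 and -0.08 to -0.02. The interactions were -0.42 to 0.41 and -0.22 to 0.11. The strain difference in ratio was -1.39 to -0.87 in controls and -1.42 to -0.93 in Txnip cones. It did not pass with 1 library fewer (exact permutation adjusted p from 0.0714 to 0.143). The Txnip effect on the ratio was -0.21 to -0.05 in BALB/c and -0.49 to 0.12 in C57BL/6J. Pearson's r of the opsins in BALB/c was -0.785 to -0.493.

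Genes called in BALB/c for Txnip, 2 by edgeR, were 76 with DESeq2, 1400 with all genes of at least 1 count, 4 with cone scaling, 4 with Xist and 2 to 258 without 1 library (258 without BALB/c Txnip 1). In C57BL/6J, 2 became 5 with all genes, and was 2 without any 1 library. For the interaction, 0 became 186 with all genes, 2 without the rod-rich libraries and 0 to 1 without 1 library. Between strains, 2588 and 2599 became 4502 and 4029 with cone scaling, and 1605 to 2489 and 1848 to 2875 without 1 library.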
